A study of Homo sapiens with 3 samples.

Results

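Human chromosome 19 carried 3296 of the 58992 MYC regions listed by ChIP-seq in P493 cells. ChIP-seq precipitates a protein with the DNA it is crosslinked to and sequences that DNA. The members are all rows with chromosome 19 in the 2 deposited peak lists, 1881 of 31378 regions in untreated cells and 1415 of 27614 in cells treated with the telomerase inhibitor MST-312, a small molecule. The regions were thus selected on their ChIP signal, since a list holds only positions where the peak caller found a high pileup over the input, and the values below are descriptions with no test. P493 is a human B cell line carrying a repressible MYC gene; whether that gene was on, and the dose and duration of MST-312, the sources used here do not state. MYC was precipitated with the antibody N262 for 1 untreated and 1 MST-312 library, and 1 input library of untreated cells served as the shared control. With 1 library per condition, differences between the lists cannot be set against a spread between replicates, and no test was made. The untreated library kept 60805153 tags and the MST-312 library 55400354, which is 8.89% fewer, with redundant rates of 0.24 and 0.49.

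MYC binds DNA as a dimer with MAX, prefers the E-box CACGTG, and in proliferating cells is found mostly at the promoters and enhancers of active genes. Chromosome 19 is among the most gene-dense human chromosomes. It is known for large tandem families of zinc finger genes, many of which encode repressors with a KRAB domain that recruit TRIM28 and silence transposable elements. The coding ends of these genes are known in many cell types to carry repressive chromatin. A pair of stretches rich in such genes was set apart here, a proximal window (chr19:19800001-24500000) beside the centromere and a distal window (chr19:52000001-58900000) near the end of the long arm. All positions are 1-based hg19 coordinates. Neither hg19 gene annotation nor hg19 sequence was used here, so regions are given by position and not tied to single genes, promoters, exons or introns.

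MYC regions were denser on chromosome 19 than on any of the other 22 chromosomes compared, in both lists (chromosome Y was left out). Between the outermost listed positions it held 32.0 untreated and 24.1 MST-312 regions per Mb. The median of the other 22 chromosomes was 9.95 untreated and 9.39 MST-312 regions per Mb. Chromosome 22 came next, with 25.1 and 18.4 regions per Mb, and chromosome X was lowest, with 5.47 and 4.79. Chromosome 19 thus accounted for 5.99% of the untreated list and 5.12% of the MST-312 list by number, and for 6.87% and 5.73% of their covered bases. The covered length was 1852 kb in the untreated list, or 3.15% of the listed span, and 1130 kb in the MST-312 list, or 1.92%.

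On chromosome 19 the MST-312 list held 24.8% fewer regions than the untreated list and covered 39.0% fewer bases. On all other chromosomes together it held 11.2% fewer regions and covered 26.04% fewer bases. The shorter list was not particular to chromosome 19, since chromosome 22, the next in density, had 26.6% fewer regions and 34.7% fewer covered bases. Of 57 bins of 1 Mb with a region, 50 held fewer MST-312 than untreated regions, 2 held equal numbers and 5 held more. Across these bins the region counts of the lists were ranked much alike (Spearman's rho 0.97 over 57 bins), which is a description, since both lists share the input and neighbouring bins are not independent.

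Single regions were also stronger and wider than elsewhere. Summit pileup, the number of extended fragments over the peak's highest point, had a median of 72 fragments in the untreated list (quartiles 50 and 124) against 61 on the other chromosomes. In the MST-312 list the median was 60 fragments (quartiles 45 and 84) against 50 elsewhere. Median widths were 830 bp untreated and 688 bp after MST-312, against 667 and 559 bp on the other chromosomes. The −log10 q, the peak caller's measure of certainty, had medians of 37.6 and 27.0 on chromosome 19 against 28.7 and 21.4 elsewhere. Local background back-calculated from the input was higher as well, with medians of 8.68 and 7.91 fragments against 7.71 and 6.75. Its part in the wider and stronger calls was not tested.

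The 5 chromosome 19 regions with the highest untreated pileup were all called again after MST-312, each with fewer fragments. Both outcomes were usual for strong regions. On the other chromosomes 98.6% of untreated regions with a −log10 q of 80 or more overlapped an MST-312 region. At a mean tag-scaled pileup (defined below) of 20 or more, 97.7% of single-region pairs there were lower after MST-312 as deposited. Picking sites by untreated pileup favours a lower MST-312 value, and pileups here are not scaled for kept tags. The highest on chromosome 19 in both lists was chr19:45581897-45583255, with a pileup of 603 fragments untreated and 383 in the MST-312 list. In the MST-312 list it spanned 45581930 to 45583240. At chr19:1861649-1865209, the chromosome's highest fold enrichment (84.5), the untreated pileup was 569 fragments and the best of its 3 MST-312 regions had 281. The region chr19:10216206-10217927 had 516 fragments untreated and 301 after MST-312. In each of these 3 places the MST-312 value was the lower. At chr19:42363348-42365012 the pileups were 502 and 285 fragments. At chr19:5790494-5791524 they were 486 and 269. By pileup, the MST-312 list ranked these 5 sites 1, 8, 4, 6 and 13 on the chromosome. Of the 100 untreated regions with the highest pileup, 78 overlapped 1 of the 100 highest MST-312 regions.

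MST-312 regions ranked 2, 3 and 5 lay outside the untreated top 5. They were chr19:1670693-1672958 (360 fragments, against 448 untreated), chr19:18134024-18135354 (359 against 413) and chr19:41768938-41771078 (290 against 358). All 3 had lower pileups than their untreated partners, but by smaller margins than the sites above. Both sets were picked by the pileups compared here, so the selection itself favours that order of margins.

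The 3 widest regions of each list fell on 5 sites, of which 4 were narrower or split after MST-312 and 1 was slightly wider. The widest untreated region, chr19:1248036-1253964, measured 5929 bp with a pileup of 127 fragments, and 4 MST-312 regions overlapped it, the strongest with 128 fragments. At chr19:56151250-56155815 the untreated region measured 4566 bp and its single partner 4434 bp, the widest in the MST-312 list, with pileups of 323 and 269 fragments. The third, chr19:10675788-10680150, measured 4363 bp untreated with 208 fragments, against 1099 bp and 70 fragments after MST-312. The other wide MST-312 regions were chr19:18390184-18393490, at 3307 bp against 3266 bp in its untreated partner, and chr19:917635-920911, at 3277 bp against 3957 bp. Regions of at least 2000 bp numbered 129 of 1881 in untreated cells and 32 of 1415 after MST-312. On the other chromosomes they numbered 1478 of 29497 and 511 of 26199, so the lower number was not particular to chromosome 19. In all, 90 untreated regions on the chromosome were split over at least 2 MST-312 regions, which is 8.15% of those with a partner, against 5.55% on the other chromosomes. Conversely, 28 MST-312 regions joined 2 untreated ones.

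Along the chromosome, MYC regions were most numerous near the end of the short arm and scarce on both sides of the centromere. The bins from 1 to 2 Mb, 2 to 3 Mb and 18 to 19 Mb held the most, with 83, 76 and 66 untreated and 69, 66 and 57 MST-312 regions. From the start to 19 Mb, the 19 bins held 16 to 83 untreated regions (median 48) and 11 to 69 MST-312 regions (median 36), and the MST-312 count was lower in all 19. Then numbers changed abruptly. The 4 bins from 20 to 24 Mb, all within the proximal zinc finger window, held 3 to 9 untreated and 4 to 10 MST-312 regions. Between 28 and 52 Mb the 24 bins held 2 to 59 untreated regions (median 29) and 2 to 44 MST-312 regions (median 19.5). In the 6 bins from 52 to 58 Mb, within the distal window, the counts were 15 to 34 untreated (median 25.5) and 9 to 23 MST-312 (median 18).

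**Figure D1:**
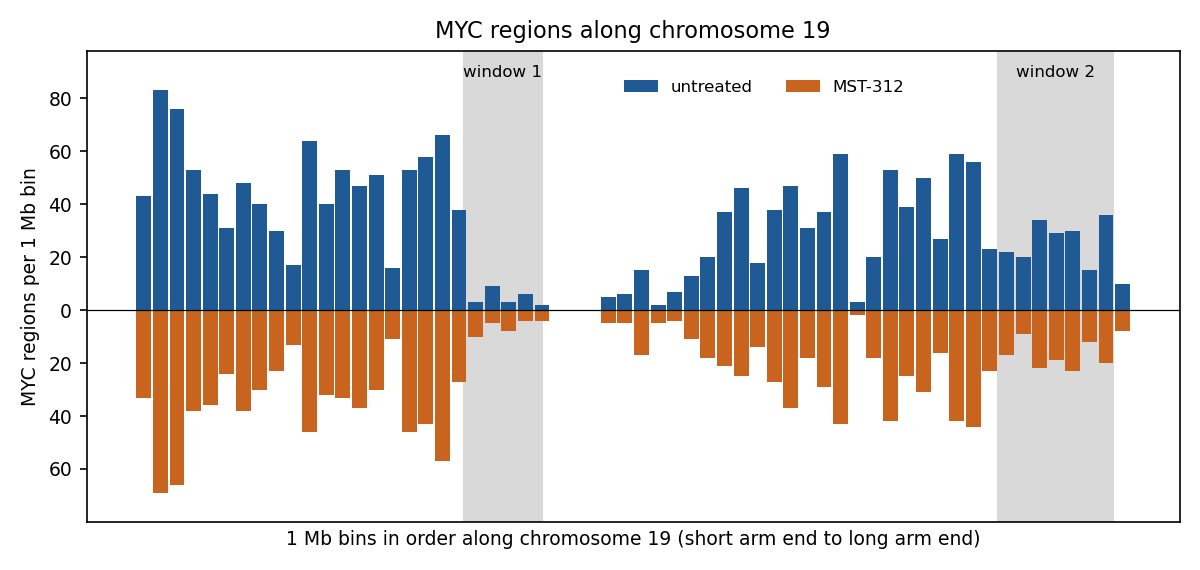
Number of listed MYC regions in each 1 Mb bin in order along chromosome 19, with untreated counts drawn upward, MST-312 counts downward and both zinc finger windows shaded (window 1 proximal, window 2 distal). Counts reach 83 untreated and 69 MST-312 regions near the short arm end, stay at 10 or fewer in the 4 bins from 20 to 24 Mb, and return to 15 to 34 untreated regions per bin in the distal window.

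The longest stretches without a region lay around the centromere, within the proximal window and near 32 and 43 Mb. In the MST-312 list no region lay from 24345939 to 28127641, a stretch of 3782 kb that the untreated list also left empty. The untreated list had its longest empty stretch from 24098092 to 28283856 (4186 kb), and 5 MST-312 regions lay inside it. Its next was 22327536 to 23432730 (1105 kb), within the proximal window, where the MST-312 list again had 5 regions. The third, 43057970 to 43937064 (879 kb), held 1 region of the MST-312 list. The MST-312 list's own next gaps were 43068724 to 44037134 (968 kb) and 32026042 to 32836322 (810 kb). Those held 6 and 4 untreated regions.

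Neighbouring regions stood closer together on chromosome 19. The median gap to the next region of the same list was 11.6 kb untreated and 15.7 kb after MST-312, against 27.4 and 43.5 kb on the other chromosomes. Gaps under 10 kb made up 46.5% of untreated and 39.2% of MST-312 gaps, against 30.8% and 23.8% elsewhere. When regions less than 10 kb apart were chained, the longest untreated chain held 13 regions in 41.2 kb, chr19:12876490-12917734, with pileups from 44 to 342 fragments, and 9 of them had a partner. The next untreated chain was chr19:909124-955681, with 12 regions. The longest MST-312 chain held 14 regions in 36.8 kb, chr19:1240124-1276961, and all 14 had an untreated partner. It lies within an untreated chain of 11 regions, chr19:1237041-1280137. Regions with no neighbour within 10 kb made up 32.7% of the untreated and 41.8% of the MST-312 regions.

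**Figure D2:**
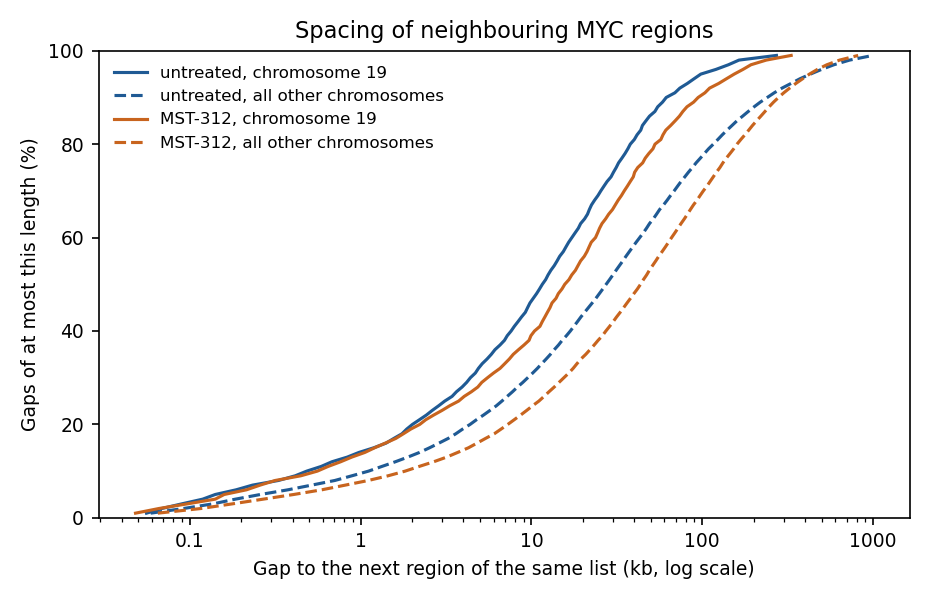
Cumulative share of gaps (percent) up to a given length (kb, log axis) between neighbouring regions of a list, for chromosome 19 (solid) and all other chromosomes (dashed). The chromosome 19 curves lie to the left of the dashed ones, with medians of 11.6 and 15.7 kb against 27.4 and 43.5 kb.

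The proximal zinc finger window stood apart by few and weak MYC regions. Its 4.7 Mb held 27 untreated and 35 MST-312 regions, or 5.74 and 7.45 per Mb. The rest of the chromosome outside both windows held 1673 and 1262 regions, or 35.5 and 26.8 per Mb with the empty centromeric stretch counted in. Median pileup in the window was 47 fragments untreated (range 29 to 133) and 33 after MST-312 (range 28 to 185), against 73 and 61 in the rest. None of its regions reached 200 fragments, whereas 159 untreated (9.50%) and 40 MST-312 regions (3.17%) in the rest did. At such shares few or none would fall among the window's 27 and 35 regions. Median widths were 682 and 412 bp in the window, against 836 and 697.5 bp in the rest. It was the only one of the 3 stretches where the MST-312 list was the longer, though that list covered 6.77% fewer bases there. The MST-312 list was also the longer on chromosomes 4 (1234 against 1191), 18 (591 against 578) and 21 (363 against 349). No region of the proximal window had a neighbour of the same list within 1 kb.

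Local background was also low in the proximal window. Its median was 6.75 fragments for untreated and 4.39 for MST-312 regions, against 8.68 and 7.91 in the rest. It lay within 1% of the lowest value of the whole list (3.93 and 3.58 fragments) for 2 of the 27 untreated regions and 10 of the 35 from MST-312 cells. In the rest, only 16 of 1673 and 7 of 1262 regions did so. The part of this low background in the weak MST-312 calls was not tested.

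The distal zinc finger window differed less from the rest of the chromosome. Its 6.9 Mb held 181 untreated and 118 MST-312 regions, or 26.2 and 17.1 per Mb. Between the windows there were 25.9 and 18.98 per Mb, values lowered by the empty centromeric stretch counted in. In the distal window the MST-312 list was 34.8% shorter and covered 45.8% fewer bases. Median pileup was 78 fragments untreated (quartiles 48 and 121) and 58.5 after MST-312 (quartiles 43 and 79.25). Both medians lie near the 73 and 61 of the rest, and the ranges overlap widely. Widths had medians of 791 and 641.5 bp.

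The highest untreated pileups of the distal window fell into 2 groups, 3 between 56 and 57 Mb and 2 just before the window's end. Besides the wide region with 323 fragments described above, chr19:56631292-56633650 had 320 fragments untreated and 123 after MST-312. At chr19:58897025-58899630 the values were 316 and 221 fragments. This site was the second highest of the window in the MST-312 list. At chr19:56164885-56167564 the pileup was 308 fragments untreated and 156 in the better of its 2 partners. At chr19:58891829-58893046 it was 299 and 138. The third highest in the MST-312 list was chr19:54973886-54975177, with 195 fragments against 250 untreated. All 6 of these sites had the lower value after MST-312, by the smallest margin at the wide region and by the largest at chr19:56631292-56633650. That order was usual in the window, where 84 of 86 pairs of single regions had the lower deposited value after MST-312.

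Beyond the distal window, in the last 0.188 Mb with listed regions, 15 untreated and 12 MST-312 regions lay close together. Their median pileups were 109 and 70.5 fragments. All 12 MST-312 regions there had an untreated partner, as did 12 of the 15 untreated ones.

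**Figure D3:**
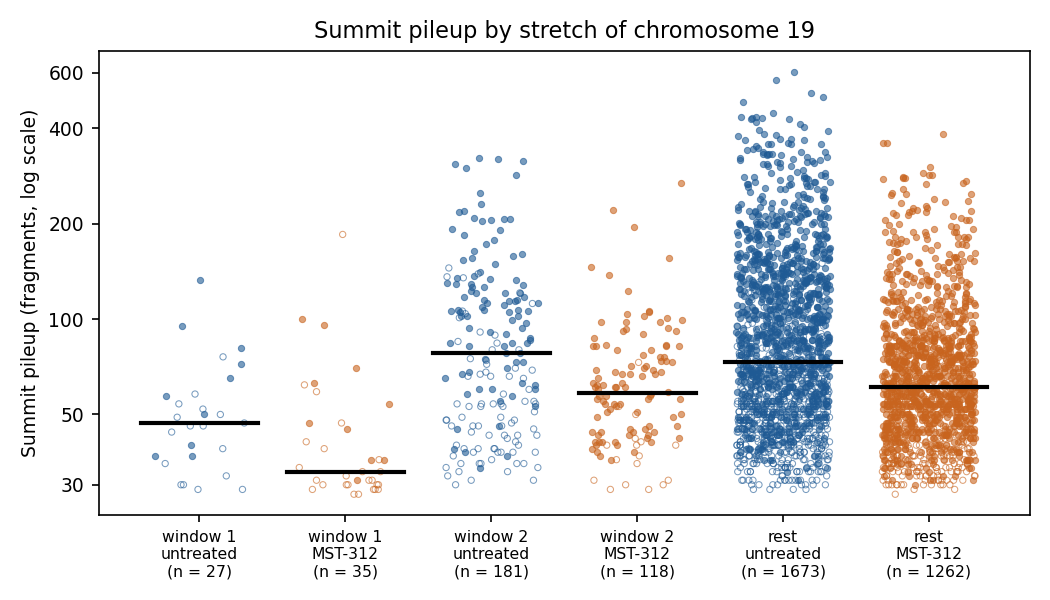
Summit pileup (fragments, log axis) of every listed region in the proximal window (window 1), the distal window (window 2) and the rest of chromosome 19; filled points have a partner in the other list, open points have none, and bars mark medians. The proximal window's points sit low (medians 47 and 33 fragments), while the distal window (78 and 58.5) and the rest (73 and 61) overlap.

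Most MST-312 regions of chromosome 19 lay on an untreated region, whereas many untreated regions had no MST-312 partner. A partner was counted where regions of both lists shared at least 1 bp. Of the 1415 MST-312 regions, 1179 had an untreated partner, which is 83.3% (exact Clopper-Pearson 95% interval 81.3 to 85.2, for counting error over regions only). The background over the whole MST-312 list was 63.3%. Of the 1881 untreated regions, 1104 had an MST-312 partner, or 58.7% (56.4 to 60.9), against a background of 53.6%. Shared bases came to 950 kb, which is 84.0% of the MST-312 and 51.3% of the untreated covered length on the chromosome. On the other chromosomes these shares were 71.9% and 53.2%.

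Other dense chromosomes came close in the MST-312 share, with 77.6% on chromosome 17, 76.6% on chromosome 22 and 74.98% on chromosome 16. The untreated share of 59.6% on chromosome 17 and 58.87% on chromosome 6 was above that of chromosome 19. Chromosome 6 was not a dense one, with 7.56 untreated regions per Mb. Against the other chromosomes pooled, the MST-312 share differed most among weak regions. With −log10 q under 20, 274 of 467 MST-312 regions had an untreated partner, or 58.7% (54.1 to 63.2), against 30.6% (29.8 to 31.5) of 12001 such regions on the other chromosomes. From 20 to 40 the shares were 90.9% (87.95 to 93.3) and 79.6% (78.7 to 80.5). Above 40, all 475 chromosome 19 regions had a partner, as did 98.2% elsewhere from 40 to 80 and 99.9% from 80 up. For untreated regions the shares at like strength differed little or the other way. They were 16.6% against 15.5% under 20, 44.8% against 46.5% from 20 to 40, 77.3% (72.9 to 81.3) against 82.9% (81.8 to 83.9) from 40 to 80, and 97.4% against 98.6% from 80 up. A larger part of chromosome 19's list was strong: 26.6% of its untreated regions reached 80, against 21.3% elsewhere.

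Weak MST-312 regions had a partner more often in bins with more untreated regions. The bin counts include the partners themselves, so part of this trend is built in. In 1 Mb bins with fewer than 10 untreated regions, 15.4% (5.86 to 30.5) of the 39 weak MST-312 regions of chromosome 19 had a partner, against 11.9% (11.0 to 12.8) on other chromosomes. In bins with 40 or more, the shares were 66.5% (60.6 to 72.1) of 272 regions and 61.0% (57.5 to 64.3) of 820. From 10 to 20 untreated regions per bin, 17 of 34 chromosome 19 regions had a partner against 38.5% elsewhere, and from 20 to 40 the shares were 57.4% and 50.6%. At like local density the chromosome 19 share was the higher in all 4 classes, but with intervals that overlap in each. These classes were chosen after seeing the data. Of the weak chromosome 19 regions, 272 of 467 lay in the densest class, against 820 of 12001 elsewhere.

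**Figure D4:**
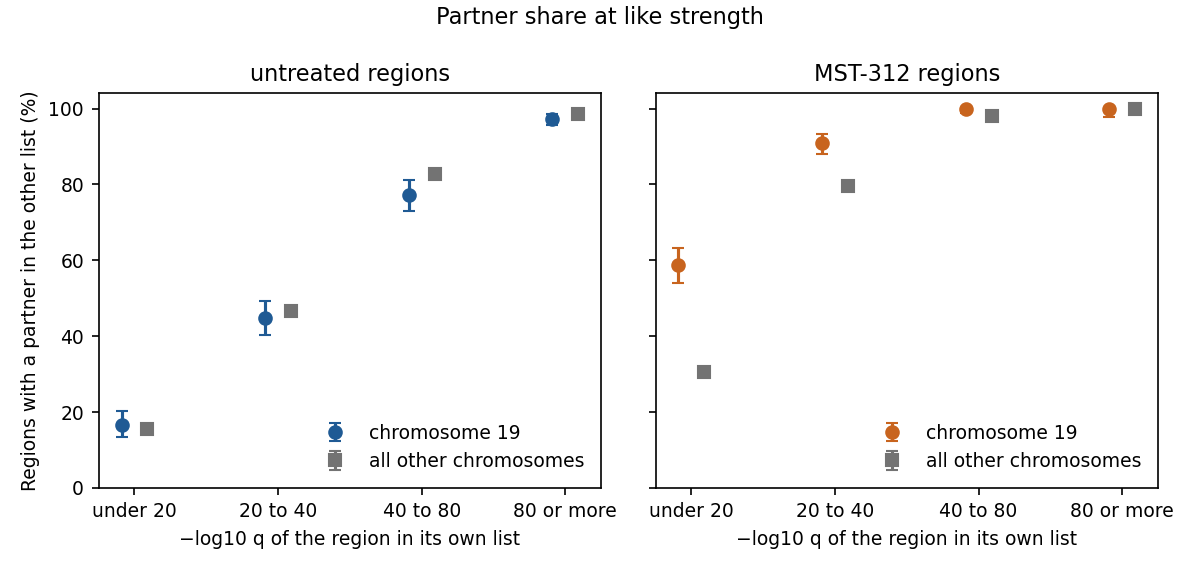
Share of regions with a partner in the other list (percent, with exact 95% intervals for counting error) by −log10 q of the region in its own list, for chromosome 19 (circles) and all other chromosomes (squares). Among MST-312 regions under 20 the shares are 58.7% and 30.6%. The untreated shares lie closer together, the furthest apart being 77.3% and 82.9% from 40 to 80.

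Among the 3 stretches of the chromosome, partner shares were lowest in the proximal window. There 10 of 27 untreated regions had a partner, or 37.0% (19.4 to 57.6), and 10 of 35 MST-312 regions, or 28.6% (14.6 to 46.3). In the distal window, 98 of 181 untreated regions had one (54.1%, 46.6 to 61.6), as did 101 of 118 MST-312 regions (85.6%, 77.9 to 91.4). The rest of the chromosome had 59.5% (57.1 to 61.9) and 84.6% (82.5 to 86.6). The intervals of the proximal MST-312 share and of the other stretches do not overlap, while those of the distal window and the rest do. Strength moved with this, since 26 of the 35 proximal MST-312 regions had −log10 q under 20. Of those 26, 4 had a partner (15.4%, 4.36 to 34.9), against 61.0% (56.1 to 65.8) of 405 such regions in the rest. The 7 untreated regions of the window that reached a −log10 q of 26 all had a partner. Among those without one, chr19:19843488-19844393 was the highest, with 76 fragments over a local background of 24.1 and the nearest MST-312 region 42.7 kb away. Between 20 and 21 Mb, 3 untreated and 10 MST-312 regions lay in the same bin without a single overlap. The 3 untreated regions were weak, with pileups of 30, 32 and 30 fragments, and the second lay 0.239 kb from an MST-312 region. Outside the windows, the bins from 31 to 32 Mb and from 43 to 44 Mb also held regions of both lists without an overlap.

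The 10 shared sites of the proximal window were of modest height, and 2 were at least 1.5-fold higher after MST-312. To allow for the unequal libraries, pileups are given next as tag-scaled pileup, in fragments per 10000000 kept tags. At chr19:19886738-19887964, the window's highest untreated region, the tag-scaled pileup was 21.9 fragments untreated and 17.3 after MST-312 (133 and 96 as deposited). At chr19:22018453-22018987 it was 15.6 and 8.48, and at chr19:21511659-21512382 it was 13.3 and 8.12. These are 2 of the 3 sites at least 1.5-fold lower after MST-312. The other was chr19:23432731-23433483, with 10.7 and 6.50. At chr19:19976527-19977898 the values were 11.8 and 11.4, and at chr19:21105889-21106526 they were 9.37 and 9.75. At those 2 sites the values were nearly equal. At chr19:23940988-23941817 the values were 8.22 and 6.50, and at chr19:22327181-22327535 they were 6.09 and 5.60. The order was turned at chr19:24006706-24007174, with 6.09 untreated and 18.1 after MST-312 (37 and 100 as deposited). It was turned also at chr19:23710685-23711006, with 6.58 and 12.6. Both lie in the last 1 Mb of the window, and the first had the highest fold enrichment of the window in the MST-312 list (12.6).

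Over the chromosome, 967 pairs joined a single untreated region with a single MST-312 region. The median pileup was 107 fragments untreated and 67 after MST-312, and the median tag-scaled pileup 17.6 and 12.1. The deposited MST-312 value was the lower in 864 pairs, or 89.3%, against a background of 85.7% over all 15265 pairs of the series. Tag-scaled, it was at least 1.5-fold lower in 407 pairs, or 42.1% (39.0 to 45.3), against a background of 33.6%. It was at least 1.5-fold higher in 16 pairs, or 1.65%, against 2.29%. The median log2 ratio of MST-312 to untreated was -0.49 (quartiles -0.80 and -0.19), and on the other chromosomes it was -0.39 (quartiles -0.68 and -0.06). The summits of a pair lay a median of 46 bp apart, as they did elsewhere. In 80.8% of the pairs the MST-312 region was the narrower, with median widths of 1031 bp untreated and 751 bp after MST-312. No spike-in is named in the sources used here, so a difference in occupancy and a difference in how well the precipitation worked cannot be told apart.

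Pairs of the distal window had the larger differences. Among its 86 pairs, 84 had the lower deposited pileup after MST-312 and 46 were at least 1.5-fold lower when tag-scaled, or 53.5% (42.4 to 64.3). In the rest of the chromosome 358 of 871 pairs were, or 41.1% (37.8 to 44.5), so the intervals overlap. Median log2 ratios were -0.62 in the distal window and -0.47 in the rest. Median untreated pileups were alike, at 110 and 107 fragments. Among pairs whose mean tag-scaled pileup was 20 or more, 17 of 20 in the distal window were at least 1.5-fold lower (85.0%, 62.1 to 96.8), against 145 of 250 in the rest (interval 51.6 to 64.2) and 49.4% on the other chromosomes. From 10 to 20, the shares were 54.7% (40.4 to 68.4), 43.2% (38.6 to 47.9) and 35.3%. Under 10, none of 13 distal pairs was 1.5-fold lower, against 9.70% in the rest and 9.98% elsewhere.

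The lower values were found in most bins along the chromosome. In all 41 bins of 1 Mb with at least 10 pairs the median log2 ratio was below 0. It ran from -0.99 in the bin from 37 to 38 Mb, where 8 of 11 pairs were at least 1.5-fold lower, to -0.23 in the bin from 38 to 39 Mb, where 5 of 20 were. Within the distal window it was -0.33 from 52 to 53 Mb (12 pairs) and -0.69 from 56 to 57 Mb (18 pairs). Another 13 bins, among them all from 20 to 34 Mb that held a pair, had fewer than 10 pairs each. Of these 13, the median was below 0 in 11 and above it in 2, the bins from 24 to 25 Mb (1.57, 1 pair) and from 29 to 30 Mb (0.30, 4 pairs).

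Among pairs with a deposited pileup of at least 50 in either library, the 4 with the lowest ratio all lay outside the windows. At chr19:510388-511043 the tag-scaled pileup was 33.4 untreated and 9.57 after MST-312, a log2 ratio of -1.80. At chr19:16882342-16882865 the values were 25.7 and 7.94. At chr19:2977083-2977979 they were 29.6 and 9.57. At chr19:11639258-11640095 they were 32.7 and 11.0. In all 4 the summits lay within 74 bp of each other. In the other direction, after the proximal site with a log2 ratio of 1.57, came chr19:51326454-51327535 (7.40 and 16.8) and chr19:2324130-2325049 (7.57 and 15.0). The fourth was the other proximal site. All 4 reached 50 fragments only in the MST-312 library, with deposited untreated pileups of 37, 45, 46 and 40. The rule thus admitted them by the value that makes their ratio high, and their positions say nothing about the windows.

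**Figure D5:**
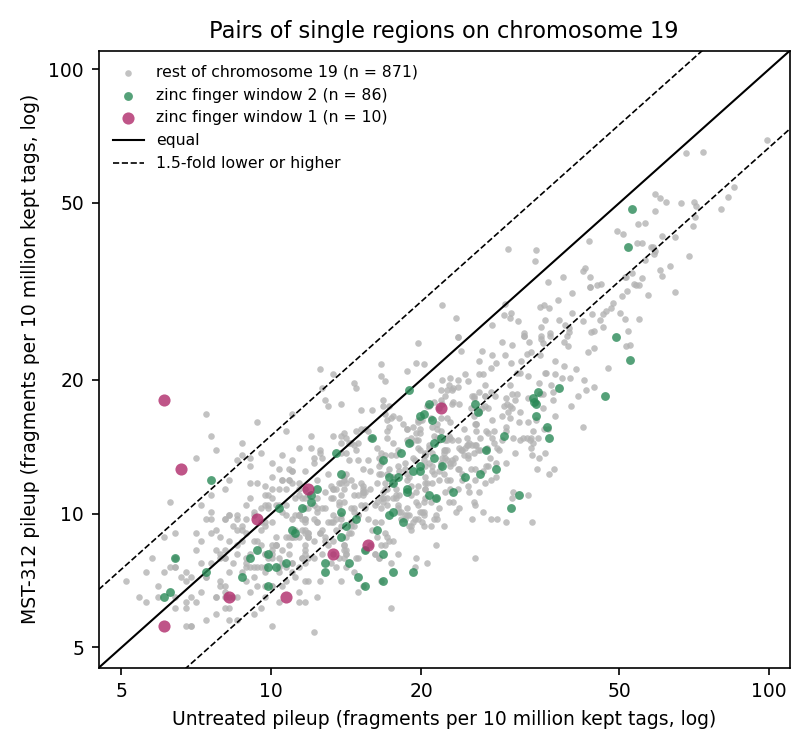
Tag-scaled pileup (fragments per 10000000 kept tags) in the untreated library (x axis, log) and the MST-312 library (y axis, log) for each of the 967 pairs of single regions on chromosome 19, colored by window (window 1 proximal, window 2 distal), with lines for equal values and for a 1.5-fold difference. Most points lie below the line of equality, 407 of them on or below the lower dashed line, and 2 of the 10 proximal window pairs lie above the upper one.

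Untreated regions without a partner were weaker and narrower than those with one. Their 777 members had a median pileup of 51 fragments and a median width of 556 bp, against 108 fragments and 1058 bp. The 5 highest were chr19:10202263-10203041 (164 fragments), chr19:16253219-16255180 (150), chr19:58070329-58071660 (145), chr19:7599655-7601108 (144) and chr19:58513493-58514836 (139). For 2 of them the lack of a partner hangs on the overlap rule, since MST-312 regions lay 617 bp and 134 bp from the second and the fourth. For the others the nearest MST-312 region was 3.45, 31.4 and 5.83 kb away. The third and the fifth lie in the distal window, both between 58 and 59 Mb, where 20 of 36 untreated regions and all 20 MST-312 regions had a partner. Of all 777, 106 had an MST-312 region less than 1 kb away.

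MST-312 regions without a partner numbered 236 and were weak, with a median pileup of 37 fragments and a median width of 394 bp. Only 20 of them reached a −log10 q of 26. The highest by pileup, chr19:24183931-24184149 in the proximal window, had 185 fragments but a fold enrichment of 2.14, since its local background was 86.1 fragments, the highest of any region on the chromosome in either list. The next were chr19:3172116-3173105 (74 fragments), chr19:55219682-55220385 (73), chr19:7759158-7759850 (69) and chr19:5053448-5054618 (68). These 4 had local backgrounds from 7.36 to 15.8 fragments, and their nearest untreated regions lay 5.11, 45.0, 6.54 and 19.798 kb away.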

How the data were processed

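MYC ChIP and input libraries were sequenced as single reads. The submitters' processing notes name Bowtie2 2.2.3, CASAVA 1.8 and the build hg19. Per the file headers, peaks were called in each library with MACS 2.0.10.20131216 against the same input, with 200 bp fragments, a p-value threshold of 0.05 and at most 3 duplicate tags per position. Of the deposited columns, pileup is a signal in fragments, fold enrichment a ratio to local background, and the deposited p- and q-values are −log10 values (the header says q was not calculated, yet the column holds values). The authors' lists hold only −log10 q above 13.01, under a filter the headers do not state, so an unlisted site may still have been called. Local background was computed as (pileup + 1) / fold enrichment − 1.

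Tag-scaled pileup is the deposited pileup divided by kept tags. Regions were placed by summit into the windows, which came with the definition of the members. Named regions are those of highest pileup per list and window, with and without partner, the widest, and the pairs with largest pileup ratio. The members and lists were chosen with earlier results of these data known. Local background and density classes were added after seeing the data. Overlap was computed in Python 3.11.15 with pandas 2.3.3 and matched bedtools 2.31.1 (1104 and 1179 regions). Simulated lists with known shares over 1881 regions were recovered with a largest difference of 0 percentage points. Intervals are exact (scipy 1.17.1) and cover counting error only; without molecular identifiers, tags need not be separate molecules. Assignment to hg19 genes and E-box counts in regions were planned and not carried out.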

Additional observations from a re-analysis of the deposited data

How the results depend on the processing

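No paired analysis was possible because each condition is 1 library, and for that reason no replicate could be left out. Of 166 alternative values, 58 lay outside the interval of the reported value (or over 1.5 times from a reported count) and 108 did not. Narrowing the windows by 0.5 Mb, placing regions by any overlap, requiring summits within 100 bp in the pairs, leaving out the empty stretch and limiting local background (the last 2 chosen after seeing the data) moved none of the values computed under them. The gene-based alternatives were not run.

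For the share of untreated and MST-312 regions with a partner, the values were 46.2% and 61.4% with at least 50% of both regions shared, 44.3% and 58.94% with summits within 100 bp, and 64.3% and 85.4% with a 1 kb gap. They were 56.0% and 93.0% with regions under a −log10 q of 26 left out of each list, 79.6% and 97.3% with them left out only of the list asked about (chosen after seeing the data), 72.7% and 78.4% with the top 1415 regions of each list, and 61.0% untreated with rows under 1 kb apart merged. In the distal window the shares were 42.5% and 65.3% with 50% shared, 42.0% and 64.4% by summit, 93.3% of MST-312 regions at 26 in both lists, and 77.5% and 96.7% at 26 in the list asked about. In the rest they were 46.8% and 62.0%, 44.9% and 59.6%, 65.3% and 86.8% with a gap, 56.9% and 93.4% at 26 in both lists, and 79.7% and 97.5% in the list asked about. In the proximal window they came to 100% (7 untreated regions) and 80% (5 MST-312 regions) at 26 in the list asked about. The MST-312 share stayed above the untreated share on the chromosome under each setting. Since overlap pairs regions of both lists, the shorter list tends to have the higher share. With the top 1415 regions of each list the shares lay closer, at 72.7% and 78.4%, in the same order. The part of list length in this order was not tested.

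At −log10 q of at least 26 the chromosome held 1188 untreated and 744 MST-312 regions, the latter covering 727 kb, with median gaps of 18.3 and 27.7 kb; merging gave gaps of 15.4 and 21.1 kb. Regions per Mb at 26 were 1.49 and 1.06 (proximal), 16.1 and 8.70 (distal) and 22.7 and 14.4 (rest). The proximal window thus no longer held more MST-312 than untreated regions. Median pileups at 26 were 72 and 70, 111 and 78.5, and 105 and 82 fragments in the same order. Median widths were 990 and 807.5 bp (distal) and 1060.5 and 869 bp (rest). A higher threshold removes weak regions by construction. Of the pairs, 53.4% were at least 1.5-fold lower with pileups as deposited, and 12.0% were 2-fold lower and 0.207% 2-fold higher when tag-scaled.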

Other observations

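In reference sequence, zinc finger promoters of chromosome 19 held the canonical E-box in a somewhat lower share than promoters at large, within counting error. RefSeq promoters (GRCh38.p14, 250 bases before to 50 after each start) were matched to families by gene symbol and searched for CACGTG, which reads the same on both strands. Of 706 promoters whose symbol begins with ZNF, ZFP, ZSCAN, ZIM or ZIK, 325 are on chromosome 19. CACGTG was present in 16 of those 325, or 4.92% (exact 95% interval 2.84 to 7.87), against 7.26% (6.99 to 7.53) of all 35116 promoters, so the intervals overlap. Zinc finger promoters on the other chromosomes held it in 4.99% of 381 cases. Other chromosome 19 promoters outside the named families held it in 7.72% of 1477 cases. Ribosomal protein genes on the chromosome, known MYC targets, held it in 3 of 10 (interval 6.67 to 65.2%), too few to set apart. The looser CANNTG, which includes CACGTG, was present in 56.9% of chromosome 19 zinc finger promoters, 61.7% of all chromosome 19 promoters and 68.7% of promoters genome-wide. On chromosome 19 outside the named families it was present in 62.0%. Zinc finger promoters on the other chromosomes held it in 59.3%, against 69.1% of all promoters there. The lower share was thus seen both across the chromosome and in zinc finger promoters elsewhere. Other families of the chromosome were also too small to set apart. CACGTG was in 0 of 22 kallikrein promoters (interval up to 15.4%), 0 of 23 of killer and leukocyte receptor genes (up to 14.8%) and 0 of 11 of cytochrome P450 genes (up to 28.5%). It was in 2 of 15 SIGLEC, 2 of 17 CEACAM and PSG and 1 of 17 olfactory receptor promoters. These are letters in reference sequence and were not tied to listed regions.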
